A study of Homo sapiens with 6 samples.

Results

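Olfactory receptor (OR) genes encode the odorant receptors of the nose, a family of G protein-coupled receptors that is the largest gene family of the human genome. A mature olfactory sensory neuron expresses a single receptor gene, and in most other cells the OR gene clusters are kept silent in compact chromatin. Lysine acetylation of histones is a mark of active promoters and enhancers. The OR genes of chromosome 11 were therefore examined as a family that is usually silent and without acetylation. They were taken from GENCODE 44 as the protein-coding genes of chromosome 11 whose symbol is OR followed by a digit, which gave 178 genes among the 20033 protein-coding genes of the autosomes, X and Y. Another 238 OR genes lay on other chromosomes. The 178 genes belonged to 11 families. Of these genes, 57 belonged to the class I receptors (families OR51, OR52 and OR56), the class first found in fish, and the other 121 to class II.

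ChIP-seq was performed with pan antibodies against acetylated lysine (Kac) and benzoylated lysine (Kbz) in cells labelled HepG2, a human liver tumour line. Such antibodies bind the modified residue in any histone, so the site of the mark is unknown. The cells were left untreated (control) or received 10 mM sodium benzoate (SB), a food preservative from which cells make the donor for benzoylation, for 24 h. Each of the 6 groups (input, Kac and Kbz, control and SB) held 1 library, and the peak lists of control Kac, SB Kac and SB Kbz were used. Per the labels, no peak was called in control Kbz. With 1 library per group no difference could be set against replicate error, and the 95% Wilson intervals below cover counting error only. Sequencing depth is unknown from peak lists, which held 70326 control Kac, 63282 SB Kac and 24308 SB Kbz peaks, so a missing peak means that none was called at the depth of that library. The cell label was checked at the start sites of 10 hepatocyte genes. No peak of any list lay within 3 kb of the canonical start at 7 of them, namely ALB (serum albumin), AFP, APOB, TTR, SERPINA1, FGB and HNF4A. When the start of any transcript was allowed, 4 of the 10 still had none. APOA1, by contrast, had peaks of all 3 lists, and TF of control Kac only. With any transcript start most of these markers thus had a peak, and a call missing in 1 library does not settle cell identity. These markers neither bear out nor contradict the label, and the cells are called HepG2 here only as labelled.

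A member was counted as having a peak when a peak shared at least 1 bp with the 3 kb on either side of its canonical transcription start site (TSS). Control Kac peaks were present at 2 of the 178 genes, a share of 1.12% (0.309 to 4.00), against 72.8% of all protein-coding genes. For SB Kac there was 1 gene, or 0.562% (0.0992 to 3.11), against 71.9%. SB Kbz peaks were found at 0 of the 178 genes, against 60.3% of all protein-coding genes. A count of 0, read here with a limit of 3 counts in place of the Wilson interval, allows a share of up to 1.69% (the Wilson upper bound was 2.11%). Only OR51D1 had peaks in both Kac lists, while 69.4% of all protein-coding genes did. Only OR51D1 and OR4D9 had a peak in any list, against 75.4%. The other 176 genes had no peak in any of the 3 lists within this window.

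The gap was also present within the chromosome. Of the 1139 other protein-coding genes of chromosome 11, 75.7% (73.1 to 78.1) had a control Kac peak, 74.5% (71.8 to 76.9) an SB Kac peak and 62.5% (59.7 to 65.3) an SB Kbz peak. OR genes of other chromosomes had control Kac at 15 of 238 genes, 6.30% (3.86 to 10.1), SB Kac at 9, 3.78%, and SB Kbz at 4, 1.68% (0.655 to 4.24). For all 3 lists the intervals of the OR genes of chromosome 11 and of other chromosomes overlapped, for control Kac only from 3.86% to 4.00%. Such overlap does not show that the shares are equal. The KRTAP genes, a clustered family that encodes hair keratin-associated proteins, had control Kac and SB Kac at 10 of 94 genes each and SB Kbz at 4. Neighbouring genes of a cluster share chromatin and are not independent, so these intervals are likely too narrow.

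**Figure D1:**
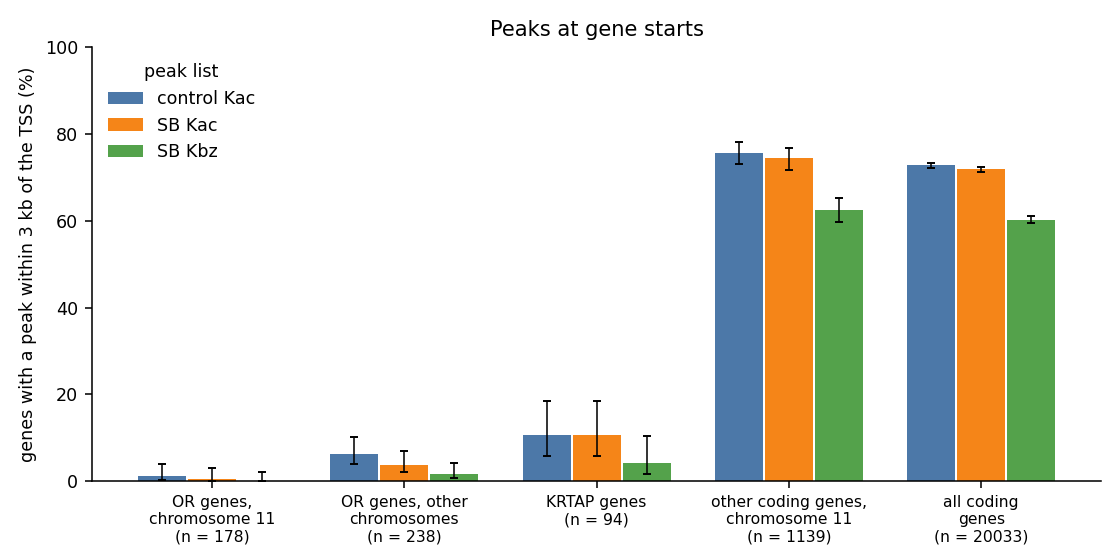
Share of genes with a peak within 3 kb of the canonical TSS (vertical axis, percent) for 5 gene groups, with 1 bar for each of the 3 peak lists and 95% Wilson intervals as error bars. The OR genes of chromosome 11 sit at 1.12%, 0.562% and 0%, next to 75.7%, 74.5% and 62.5% for the other coding genes of the chromosome.

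OR51D1 (ENSG00000197428.3) is a class I receptor gene on the plus strand of chromosome 11 with 2 exons, its TSS at 4637477 (hg38) and its coding start 2314 bp further on. The control Kac peak reached from 4636845 to 4637616, a length of 772 bp, and covered the TSS. The SB Kac peak reached from 4636972 to 4637428, a length of 457 bp, and ended 49 bp upstream of the TSS. It lay wholly inside the control Kac peak, of which it covered 59.2%. The nearest SB Kbz peak was 28.1 kb from the SB Kac peak. The peaks were weak to moderate within their own lists: the fold over background was 2.67 in control Kac, at percentile 19.4 of all peaks, and 3.18 in SB Kac, at percentile 58.9. Their −log10 q values, averaged over the peak by the peak caller, were 2.07 and 3.03. Since fold was set separately in each library, these values do not measure a change with SB.

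OR4D9 (ENSG00000172742.6) is a class II receptor gene on the plus strand with its canonical TSS at 59511539. Its only peak was a control Kac peak of 509 bp, from 59511212 to 59511720, which covered the TSS. This peak had a fold of 2.81, at percentile 30.9, and a −log10 q of 1.98, that is a q of 0.0105, just above the false discovery rate of 0.01 named in the methods. From the TSS the nearest SB Kac peak lay 25096 bp away and the nearest SB Kbz peak 25215 bp away.

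The sequence upstream of the OR4D9 start is shown since it is a member promoter under a peak. The 250 bases before the outermost annotated TSS were read from hg38 on the strand of the gene, and CpG dinucleotides are in capitals. TRIM68, a ubiquitin ligase gene whose TSS is 29246 bp from that of OR51D1, with peaks in all 3 lists, is given for comparison. OR4D9 and TRIM68 were chosen for printing after their values were seen, TRIM68 as the gene with the highest fold of SB Kbz among non-OR genes inside the clusters.
OR4D9 (chr11:59511118-59511367, plus strand): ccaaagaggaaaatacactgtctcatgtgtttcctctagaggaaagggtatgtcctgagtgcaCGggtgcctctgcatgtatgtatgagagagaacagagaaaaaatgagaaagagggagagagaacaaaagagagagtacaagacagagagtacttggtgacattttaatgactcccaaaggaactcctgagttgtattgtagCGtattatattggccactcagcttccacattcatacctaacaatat
TRIM68 (chr11:4608232-4608481, minus strand): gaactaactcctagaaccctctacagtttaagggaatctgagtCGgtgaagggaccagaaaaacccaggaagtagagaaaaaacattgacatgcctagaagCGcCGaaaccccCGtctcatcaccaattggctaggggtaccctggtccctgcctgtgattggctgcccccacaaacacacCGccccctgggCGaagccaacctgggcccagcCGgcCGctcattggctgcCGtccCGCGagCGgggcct
OR4D9 had 2 CpG in these 250 bases and a GC content of 41.6%, and TRIM68 had 12 CpG and a GC content of 58.8%. Of the OR4D9 bases, 156 lay under its control Kac peak. The TRIM68 bases were covered in full by a peak of each list.

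OR51D1 stood out among the members in base composition. In the 300 bases around the canonical TSS (250 before, 50 after) it had the highest GC content of the 178 genes, 60.3%, and ranked 3 in number of CpG, with 10. OR4D9 ranked 75 in GC content, with 39.0%, and had 1 CpG. The median over the 178 genes was 37.2% GC with 1 CpG, against 63.3% GC and 23 CpG for the other protein-coding genes of chromosome 11. No CpG at all was found at 47 of the 178 starts (26.4%), against 1.93% of the other genes. A ratio of observed to expected CpG above 0.6, a common criterion for a CpG island, was met by 3 members, OR52N2, OR5D18 and OR10Q1, and by 64.3% of the other genes. None of these 3 members had a peak.

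CpG-poor starts were less often under a peak in the rest of the chromosome too. Among other protein-coding genes of chromosome 11 with a CpG ratio of at most 0.6, 191 of 407 (46.9%) had control Kac, 43.2% SB Kac and 25.1% SB Kbz. The 175 OR genes in this range had 1.14%, 0.571% and 0%. The groups were not matched for CpG within this range, and whether CpG content underlies the difference was not tested. Among starts with no CpG, 3 of 22 other genes had control Kac, 4 SB Kac and 1 SB Kbz, against 0 of 47 OR genes in each list. With so few genes the last comparison rests on single calls.

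Motifs were searched in the same 300 bases on both strands. TATAAA, the core of the TATA box, occurred at 34.8% of the OR starts and at 9.71% of all protein-coding starts. TAATTA, a core that homeodomain proteins such as LHX2 bind, occurred at 22.5% and 3.04%. CCCNNGGG, the core of the site of the EBF (Olf) factors, occurred at 7.87% and 21.9%. In the same order the 3 motifs occurred at 34.5%, 21.0% and 6.72% of the OR starts of other chromosomes. At KRTAP starts the shares were 79.8%, 18.1% and 4.26%. Both TATAAA and TAATTA hold only A and T, and the OR starts are AT-rich. These are matches of letters in a window and do not show a bound factor. None of the 3 motifs was found in the 250 bases printed for OR4D9.

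Since the authors kept uniquely mapped reads of 50 bp and OR genes resemble each other, the uniqueness of the windows was measured. Of the 50-base words in each 6 kb window, a median of 98.5% (lowest 65.9%, at OR8B2) occurred exactly once in the genome for the 178 genes. For the other protein-coding genes of chromosome 11 the median was 97.3%. At least 90% of the words were unique in 155 of the 178 windows (87.1%) and in 90.8% of the others. Among the 238 OR genes of other chromosomes, 29 windows had under 50% unique words, against 0 of the 178. This limits the comparison of peak shares between these groups of OR genes. The words were compared without mismatches.

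**Figure D2:**
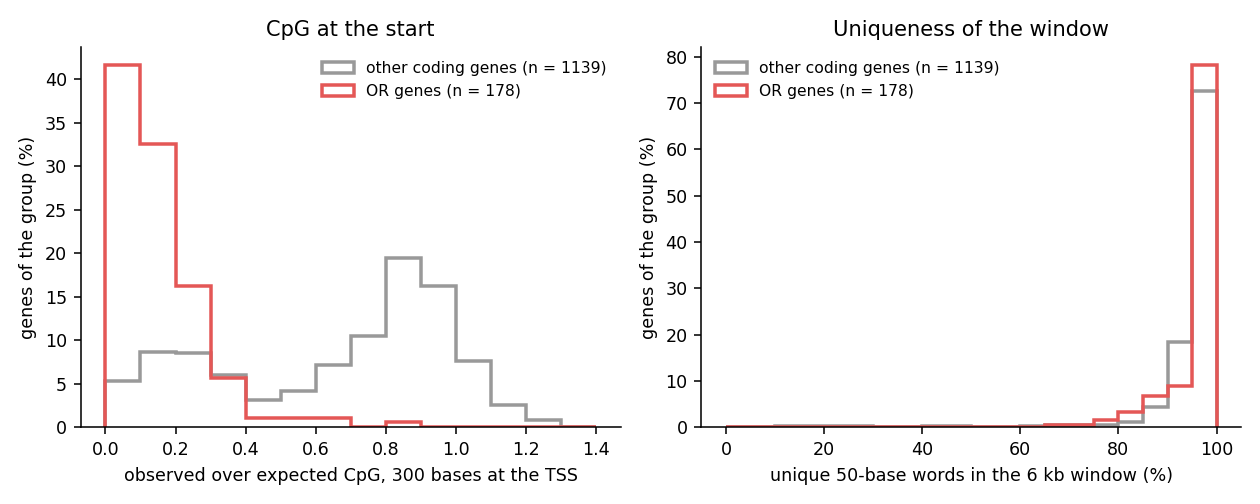
Histograms over the 178 OR genes and the 1139 other coding genes of chromosome 11 (vertical axes, percent of the group) of the ratio of observed to expected CpG in the 300 bases at the TSS (left) and of the percent of 50-base words in the 6 kb window that occur once in the genome (right). The OR genes lie at low CpG ratios, with a median of 0.116 against 0.771, while the uniqueness of the windows is similar, with medians of 98.5% and 97.3%.

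The distance to the nearest peak showed how far the members lay from any mark. It had a median of 184 kb for control Kac, 221 kb for SB Kac and 206 kb for SB Kbz, whereas the median over the other protein-coding genes of chromosome 11 was 0 kb, 0 kb and 0.114 kb. More than 100 kb separated 67.4% of the OR genes from control Kac, 71.9% from SB Kac and 69.7% from SB Kbz, against 5.53%, 6.58% and 8.96% of the other genes. The farthest were OR4C46 for Kac, at 2330 kb in control and 2670 kb in SB, and OR8I2 for SB Kbz, at 1180 kb. Class I genes had medians of 156, 172 and 174 kb in the order control Kac, SB Kac and SB Kbz, and class II genes 245, 309 and 261 kb. No gene lay close to the edge of the window. The members just inside it had their peak at most 49 bp from the TSS, and the nearest outside was OR2D3 in each list, at 4507, 4622 and 4684 bp.

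**Figure D3:**
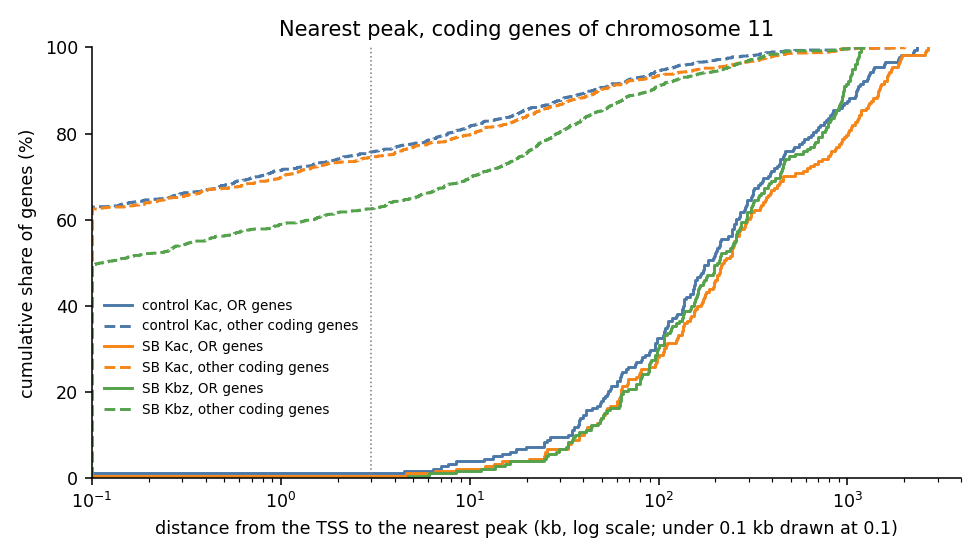
Cumulative share of coding genes of chromosome 11 (vertical axis, percent) against the distance from the canonical TSS to the nearest peak (horizontal axis, kb, log scale), for OR genes (solid) and other coding genes (dashed) in the 3 lists. The curves of the OR genes stay near 0 up to the 3 kb line and reach their median at 184 kb for control Kac, 221 kb for SB Kac and 206 kb for SB Kbz.

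In a window of 10 kb, 7 members had a control Kac peak, 4 an SB Kac peak and 3 an SB Kbz peak, against 79.0%, 77.6% and 66.9% of all protein-coding genes. Peaks in both Kac lists were found at 4 members, against 75.6%, and in any list at 7, against 81.3%. These genes were OR51D1, OR51E1, OR4D9, OR4D11, OR2D3, OR2AT4 and OR8B12. For OR51E1, a receptor also known from prostate tissue, and OR4D11 the peaks were those of their neighbours OR51D1 and OR4D9. OR51E2, the prostate receptor next to OR51E1, was 60237 bp from the nearest control Kac peak, 60425 bp from SB Kac and 88942 bp from SB Kbz. At OR2D3 the peaks covered the TSS of ZNF215, a zinc finger gene, and were strong in their lists, at percentiles 92.3 (control Kac), 96.2 (SB Kac) and 81.6 (SB Kbz).

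OR2AT4, a receptor known from skin keratinocytes that lies outside the clusters, had a peak of each list upstream, 8439 bp from its TSS for SB Kbz, 8481 bp for control Kac and 8499 bp for SB Kac. The nearest non-OR coding start, that of SLCO2B1, was 45182 bp or more from these peaks. Their folds stood at percentile 18.7 of the SB Kbz list, 82.0 of control Kac and 52.7 of SB Kac. At OR8B12 an SB Kbz peak lay downstream, at 6081 to 6508 bp from the TSS, with a fold of 4.81 at percentile 72.0 and a −log10 q of 8.34. It overlapped no Kac peak of either condition. A weak control Kac peak, at percentile 21.0, lay at 7074 to 7575 bp from the TSS, and the nearest SB Kac peak was at 78588 bp. The 250 bases in the middle of this peak are shown, a choice made after its values were seen, since it was the only SB Kbz peak within 10 kb of a member that overlapped no Kac peak. CpG is in capitals.
OR8B12 downstream peak (chr11:124537235-124537484, plus strand): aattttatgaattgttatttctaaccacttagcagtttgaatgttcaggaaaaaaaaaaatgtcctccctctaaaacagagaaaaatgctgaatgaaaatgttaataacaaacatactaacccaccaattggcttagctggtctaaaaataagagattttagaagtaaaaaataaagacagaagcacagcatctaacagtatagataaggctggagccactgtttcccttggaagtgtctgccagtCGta
This stretch had 1 CpG and a GC content of 34.0%, and all 50-base words of the whole peak (100%) were unique in the genome.

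**Figure D4:**
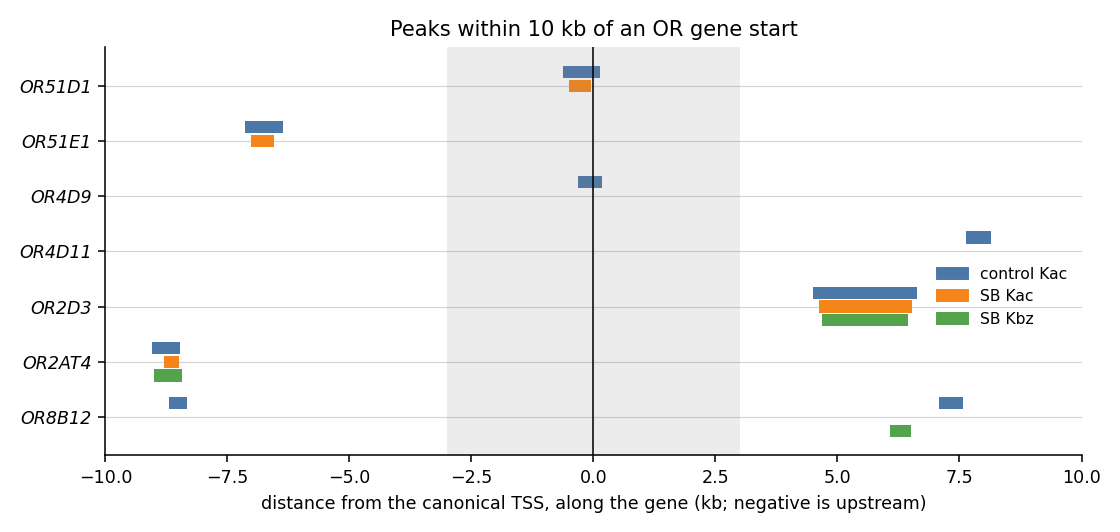
Peaks (coloured bars) of control Kac, SB Kac and SB Kbz within 10 kb of the canonical TSS of 7 OR genes, with the distance along the gene in kb on the horizontal axis and the 3 kb window in grey. Only OR51D1 and OR4D9 have a peak in the grey window, and the SB Kbz peaks of OR2D3, OR2AT4 and OR8B12 lie 4684, 8439 and 6081 bp away.

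The marks were then placed along the gene clusters. Runs of members at most 500 kb apart, with at least 5 members, formed 7 clusters that held 167 of the 178 genes and spanned 5.58 Mb. Control Kac had 19 peaks in these clusters, 3.41 per Mb, against 26.6 per Mb in the rest of chromosome 11. SB Kac had 15, 2.69 per Mb, against 24.1. SB Kbz also had 15, 2.69 per Mb, against 9.60. By bases, control Kac covered 0.577% of the clusters and 4.92% of the rest, SB Kac 0.494% and 4.36%, and SB Kbz 0.303% and 1.29%. Of the 15 SB Kbz peaks, 13 overlapped a Kac peak of each condition, and the other 2 were those nearest to OR8B8 and OR8B12.

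Most cluster peaks lay near the start of a gene not named as a receptor or away from any member. Within 3 kb of a member's TSS there were 2 control Kac, 1 SB Kac and 0 SB Kbz peaks. Within 3 kb of the TSS of a gene not named OR, coding or not, there were 10, 10 and 11. The control Kac and SB Kbz peaks downstream of OR8B12 were counted here through an unnamed pseudogene. Whether that pseudogene derives from a receptor gene was not examined. Within the clusters 23 other protein-coding genes start, and 8 of them had control Kac, 8 SB Kac and 7 SB Kbz. These shares were 34.8%, 34.8% and 30.4%, against 72.8%, 71.9% and 60.3% of all protein-coding genes. No peak of any list was found at 15 of the 23. TRIM6 and TRIM6-TRIM34, counted as separate genes, share their peaks. Among the 15, ENSG00000284732 starts at the TSS of the member OR5M3. ENSG00000284931, also among the 15, starts beside HBG2, at 5254783 against 5254781. Peaks of all 3 lists were found at TRIM21, TRIM68, TRIM6, TRIM5 and the TRIM6-TRIM34 readthrough gene, of the TRIM family of ubiquitin ligases, and at OSBP (a sterol carrier) and PATL1 (mRNA decay). VWA5A had both Kac marks. The globin genes HBB, HBD, HBG1, HBG2 and HBE1, which lie among the class I receptors and are used in red cells, had no peak of any list.

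The cluster from OR52B4 to OR52W1 (4367263 to 6200186) held all 57 class I genes and 17 other coding genes. The strongest control Kac peak of any cluster lay here over the TSS of TRIM21, with a fold of 6.53 at percentile 99.3, and was 24774 bp from OR52B4, the nearest member. The TRIM5 peak followed, at percentile 95.4. The strongest SB Kbz peaks of the clusters were those of TRIM68, at percentile 86.9, and TRIM21, at percentile 76.9. The SB Kbz peak of this cluster that was closest to a member lay 13614 bp from OR52I1.

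The cluster from OR4A16 to OR5AK2 (55343201 to 56989843), with 50 members the second by number, had a single control Kac peak of 392 bp at percentile 43.4 and no SB Kac or SB Kbz peak. Its members were a median of 764 kb from control Kac, 1110 kb from SB Kac and 899 kb from SB Kbz. The clusters from OR4B1 to OR4A47 (7 members) and from OR9Q1 to OR5B21 (13 members) had no peak of any list. The cluster from OR2AG2 to OR2D3 (8 members) had 1 peak of each Kac list and none of SB Kbz. The cluster from OR6X1 to OR8A1 (24 members) had 4 control Kac, 2 SB Kac and 3 SB Kbz peaks. Its strongest control Kac peak, with a fold of 5.23, was 34884 bp from OR10G7.

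The cluster from OR5AN1 to OR10V1 (59358895 to 59713845, 8 members) held 7 of the 19 control Kac, 7 of the 15 SB Kac and 8 of the 15 SB Kbz peaks, which covered 5.66%, 5.72% and 3.50% of its bases. Without it the other 6 clusters had 2.30 control Kac, 1.53 SB Kac and 1.34 SB Kbz peaks per Mb and 0.231%, 0.139% and 0.0854% of their bases under a peak. The peaks here were at OSBP and PATL1, at the OR4D9 start and in the stretch between OR4D9 and OSBP, which holds non-coding genes such as LINC02739 and no coding gene. The strongest SB Kac cluster peaks were those of PATL1 at percentile 90.9, TRIM68 at 90.1 and, in this stretch, a peak at percentile 89.7 that lay 25096 bp from OR4D9.

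**Figure D5:**
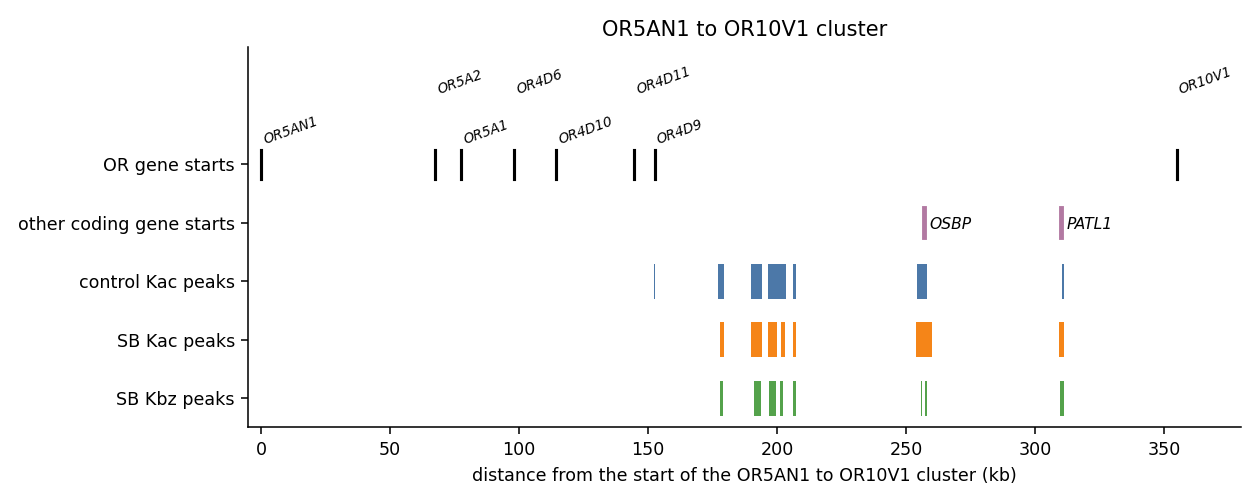
Map of the OR5AN1 to OR10V1 cluster with the distance from its first base in kb on the horizontal axis, showing starts of OR genes (black), starts of other coding genes (purple) and the peaks of the 3 lists. Peaks sit at OSBP, at PATL1 and between OR4D9 and OSBP, and the only one at an OR start is the control Kac peak of OR4D9.

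Genes that serve the receptors in olfactory neurons were then read with the same 3 kb window. Of 14 genes for signal transduction and receptor trafficking, 8 had control Kac, 8 SB Kac and 5 SB Kbz, where 72.8%, 71.9% and 60.3% of all protein-coding genes had them. All 3 marks were present at ADCY3 (adenylyl cyclase of the cilia), CNGA4 (a subunit of the cyclic nucleotide-gated channel), ANO2 (a chloride channel), RIC8B and GNB1. At CNGA4 the SB peaks lay near the edge of the window, 2874 bp (SB Kac) and 2379 bp (SB Kbz) from the TSS. The TSS of FHIP1B, the neighbouring coding gene, was 0 bp from SB Kac and 581 bp from SB Kbz. No peak was found at OMP (olfactory marker protein), CNGA2, STOML3 or the receptor transporters RTP1 and RTP2. All 3 lists had peaks at 59.8% of all protein-coding genes and at 11 of 11 regulators linked to receptor choice or nuclear organisation. Among these regulators were LHX2, EMX2, LDB1, EBF1, ATF5 and CBX5. Many of these genes are used in other tissues as well.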

How the data were processed

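Chromatin of cells labelled HepG2 was digested with micrococcal nuclease and sequenced in single reads of 50 bp. Per the labels and the methods of the study, the authors aligned reads to hg38 with Bowtie2 2.2.6, retained reads with a unique position, took out duplicates with SAMtools 0.1.19 and called peaks per library with MACS2 2.1.1 at a false discovery rate of 0.01. The broad setting and the background track are not given in the sources used here. Each deposited list gives for a peak a display score (not used), the fold over background (a linear ratio) and the −log10 p and −log10 q, averaged over the region. The lists reach down to a −log10 q of 1.31, whereas a rate of 0.01 corresponds to 2. The paper reports fewer Kbz peaks after SB than the 24308 of the list used here, and the reason is unknown. Peaks on 24 chromosomes were used, which dropped 3 of the control Kac list. All peak chromosome names were in the reference, and 0 peaks reached past a chromosome end.

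The genes and lists were chosen with earlier results of these data known. Genes and canonical TSS came from GENCODE 44. Named are all members with a peak within 3 kb, those next to this limit, and the 3 cluster peaks of highest fold in each list. Members with a peak within 10 kb, and any other gene named as an example, were named after their values were seen. Scripts ran in Python 3.11.15 with pandas 2.3.3, numpy 2.4.6, numba 0.67.0, scipy 1.17.1 and matplotlib 3.10.9. The overlap code was tested on planted starts (500 of 500 inside peaks and 0 of 500 outside were called), and 0 of 60099 calls differed from bedtools 2.31.1. No test between groups was possible with 1 library each. Alternatives were other windows, start sites, peak thresholds and cluster definitions. A promoter sequence and the result of a marker gene are not reported here.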

Additional observations from a re-analysis of the deposited data

How the results depend on the processing

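Varying a single choice per run, the 8 results gave 60 recomputed values, of which 31 stayed close to the original. Close meant equal or within 1.5 times for counts, and inside the Wilson interval for covered bases. That interval took each base as independent, so it was too narrow to measure a spread. An SB Kbz count of 0 could not change with a narrower window, stricter peaks, the midpoint or fewer members. The 31 is therefore not a measure of stability. A window of 1 kb, the TSS of any transcript, the peak midpoint, and leaving out the 2 members near another coding TSS changed no count. With a 10 kb window the counts were 7 for control Kac, 4 for SB Kac, 3 for SB Kbz, 4 for both Kac lists and 7 for any list. With the start codon in place of the TSS (177 genes), control Kac and any list fell to 1 each, since the start codon of OR4D9 is 3374 bp from its TSS. With a −log10 q of at least 2 they were also 1 each. With a −log10 q of at least 5, or with the 15000 peaks of each list with the lowest p, the counts were 0 for control Kac, SB Kac, both Kac lists and any list, while of all 20033 protein-coding genes 9622 had control Kac, 10913 SB Kac and 8249 SB Kbz at a −log10 q of at least 5, and 7853, 9805 and 9829 with 15000 peaks.

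Cluster bases under control Kac, SB Kac and SB Kbz were 0.544%, 0.486% and 0.298% at a −log10 q of at least 2, 0.496%, 0.367% and 0.126% at 5, 0.447%, 0.336% and 0.261% with 15000 peaks, and 0.277%, 0.197% and 0.143% without the 3 kb around other TSS. A gap of at most 200 kb gave the same values, since the clusters then spanned the same bases. These settings only recount peaks and bases, and the cause of the missing peaks was not tested. No paired analysis was possible because there was a single library for every condition, and no replicate could be left out. Depth limits all counts of missing peaks.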

Other observations

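Of the 1258 SB Kbz peaks of chromosome 11, 7 had no Kac peak of either condition within 1 Mb, a limit chosen after the data were seen. Of these 7, 3 were the nearest SB Kbz peak of 26 members. Since these members were picked through peaks that lie far from Kac, being closer to SB Kbz is largely built into the choice. All 26 lay closer to SB Kbz than to SB Kac. Of the 26, 21 lay closer to SB Kbz than to control Kac, and the other 5, OR5W2, OR5I1, OR10AG1, OR5F1 and OR5AS1, lay closer to control Kac, at 904800 to 1017872 bp against 1037628 to 1150700 bp for SB Kbz. The first (50394786 to 50395115, 330 bp) was nearest to OR4C13, OR4C12 and OR4C45, at 442395, 412251 and 361912 bp from their TSS, while the nearest Kac peaks of either condition were 2.28 Mb from it. It had a fold of 4.72 at percentile 70.2 and a −log10 q of 6.55. The next (54797272 to 54797559, 288 bp) was nearest to OR4C46, OR4A8 and OR4A5, at 193274, 114395 and 90440 bp, with control Kac 2.13 Mb and SB Kac 2.48 Mb away. It had a fold of 5.09 at percentile 77.0. The last (54876595 to 54876954, 360 bp) was the nearest for 20 members of the OR4A16 to OR5AK2 cluster and had a fold of 4.28 at percentile 60.0. The share of 50-base words found once in the genome was 100% in the first peak, 98.7% in the next and 91.6% in the last, where a word occurred up to 80 times. The part of mapping in these calls was not tested.

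Of the 238 OR genes of other chromosomes, 4 (1.68%) had all 3 marks within 3 kb of the TSS, against 59.8% of all protein-coding genes. These 4 were OR5K2, OR2I1P, OR4K2 and OR1F1. The nearest other coding gene started 25221 bp from OR5K2, 9325 bp from OR2I1P, 430809 bp from OR4K2 and 46954 bp from OR1F1. Among the 195 OR pseudogenes and non-coding OR genes of chromosome 11, 2 had a control Kac peak within 3 kb of the gene, and 0 had an SB Kac or SB Kbz peak.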
